A study of Rattus norvegicus with 8 samples.

Results

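Neural cell adhesion molecules and latrophilins are cell-surface proteins through which neurons and neuroendocrine cells hold on to each other, to axons and to the synaptic cleft. Described here are 7 of their genes, the cadherin Cdh22, the L1-family members Nfasc and L1cam, the immunoglobulin-family members Ncam1 and Thy1, and the latrophilins Adgrl1 and Adgrl2. They were read through every probe set (a group of short probes that together give 1 signal for 1 transcript) that the array's annotation assigned to 1 of these symbols alone, which gave 14 of the 8799 probe sets on the array, for 7 of 4737 genes. Cdh22, Ncam1 and Thy1 had 2 probe sets each, Nfasc and Adgrl2 had 3 each, and L1cam and Adgrl1 had 1 each. The genes were chosen by family with the signals and log2 differences of this same comparison already known, so all values below describe these samples and none is independent support.

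The samples were 4 induced (+PA) and 4 uninduced (-PA) samples of Htt14A2.5, a line of rat PC12 cells, with 1 array each. PC12 cells come from a rat adrenal medullary tumour and are widely used as a model of chromaffin cells and of neurite growth. All 8 samples carry, per the labels, a stable inducible construct for a truncated mutant exon 1 of human huntingtin, the protein mutated in Huntington's disease. The groups were taken from the titles, which mark 4 samples +PA and 4 -PA, PA being ponasterone, an insect-type steroid, and which name no vehicle. The free-text descriptions do not bear this split out, since those of all 8 samples, the -PA ones included, state a 48 h induction with ponasterone. Every difference given here between induced and uninduced cells therefore rests on the titles alone. Both groups are the same line, and no line without the construct is among these samples, so an effect of the steroid and an effect of the construct cannot be told apart. The labels do not say whether replicates were separate cultures, so p-values measure the spread between these samples, which may be technical.

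Cadherins bind the same cadherin on the next cell in the presence of calcium and connect through catenins to actin. Neurofascin (Nfasc) and L1 (L1cam) reach through ankyrins to the spectrin skeleton under the membrane, and neurofascin gathers sodium channels at the axon initial segment and node of Ranvier. NCAM (Ncam1) is the main carrier of polysialic acid in neural tissue, and Thy-1 (Thy1) is a small protein held in the membrane by a lipid anchor, abundant on mature neurons. Latrophilins are adhesion G-protein-coupled receptors, known as the targets of alpha-latrotoxin from black widow venom, which drives exocytosis in neurons and in PC12 cells.

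The arrays had median signals of 97.5 to 134.9 in induced and 106.3 to 127.0 in uninduced cells. As a sign of RNA quality, the Gapdh control's 3' over 5' signal, on a log2 scale, lay between 0.39 and 0.56 in induced and between 0.20 and 0.50 in uninduced cells, so these ranges overlapped. The same measure for hexokinase lay between 0.501 and 1.142 in induced and between 0.868 and 1.374 in uninduced cells. For actin induced replicate 3 stood apart at -0.67, with the other induced arrays at 0.216 to 0.575 and the uninduced arrays at 0.076 to 0.568. Without that array the calls of Cdh22, Adgrl1 and Adgrl2 given below held and that of Nfasc was lost (adjusted p = 0.107). As a reference for low signal, the 95th percentile of 38 control probe sets for sequences that the samples should lack lay between 101.6 and 183.5. Of the markers that define the line, the granin Chgb read 11530 to 12967 in induced and 9331 to 13494 in uninduced cells. The catecholamine enzymes were low: Th read 32.5 to 93.5 in induced and 33.4 to 164.1 in uninduced cells, Dbh 5.7 to 16.8 in induced and 2.4 to 15.5 in uninduced cells, and Ddc 20.9 to 30.3 in induced and 23.6 to 43.3 in uninduced cells, near or within the range of those controls.

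Induced cells had lower signals for Cdh22, Nfasc, Adgrl1 and Adgrl2, while L1cam, Ncam1 and Thy1 showed differences that did not pass the test. The Cdh22 probe sets disagreed with each other, and every signal of that not called lay under the low-signal controls' 95th percentile. All signals of the Nfasc probe set that passed lay under the low-signal controls' 95th percentile. Differences were fitted with limma on log2(signal + 7) and called at a Benjamini-Hochberg adjusted p under 0.05 over all 6129 probe sets tested. Of the 14 member probe sets 13 passed the filter on low signals, and of these 5 were called lower, 0 were called higher and 8 were not called. Over all probe sets tested, 2.97% were called lower and 4.1% higher. All 4 induced arrays lay below all 4 uninduced arrays in 7 of the 13, against 7.11% of all probe sets tested. The median log2 difference was -0.53 over the 13 and -0.05 over all 6129. These counts follow from the choice of the genes and nothing is read from them. In RNA from whole cultures, fewer cells that express a gene and less RNA per cell cannot be told apart.

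**Figure D1:**
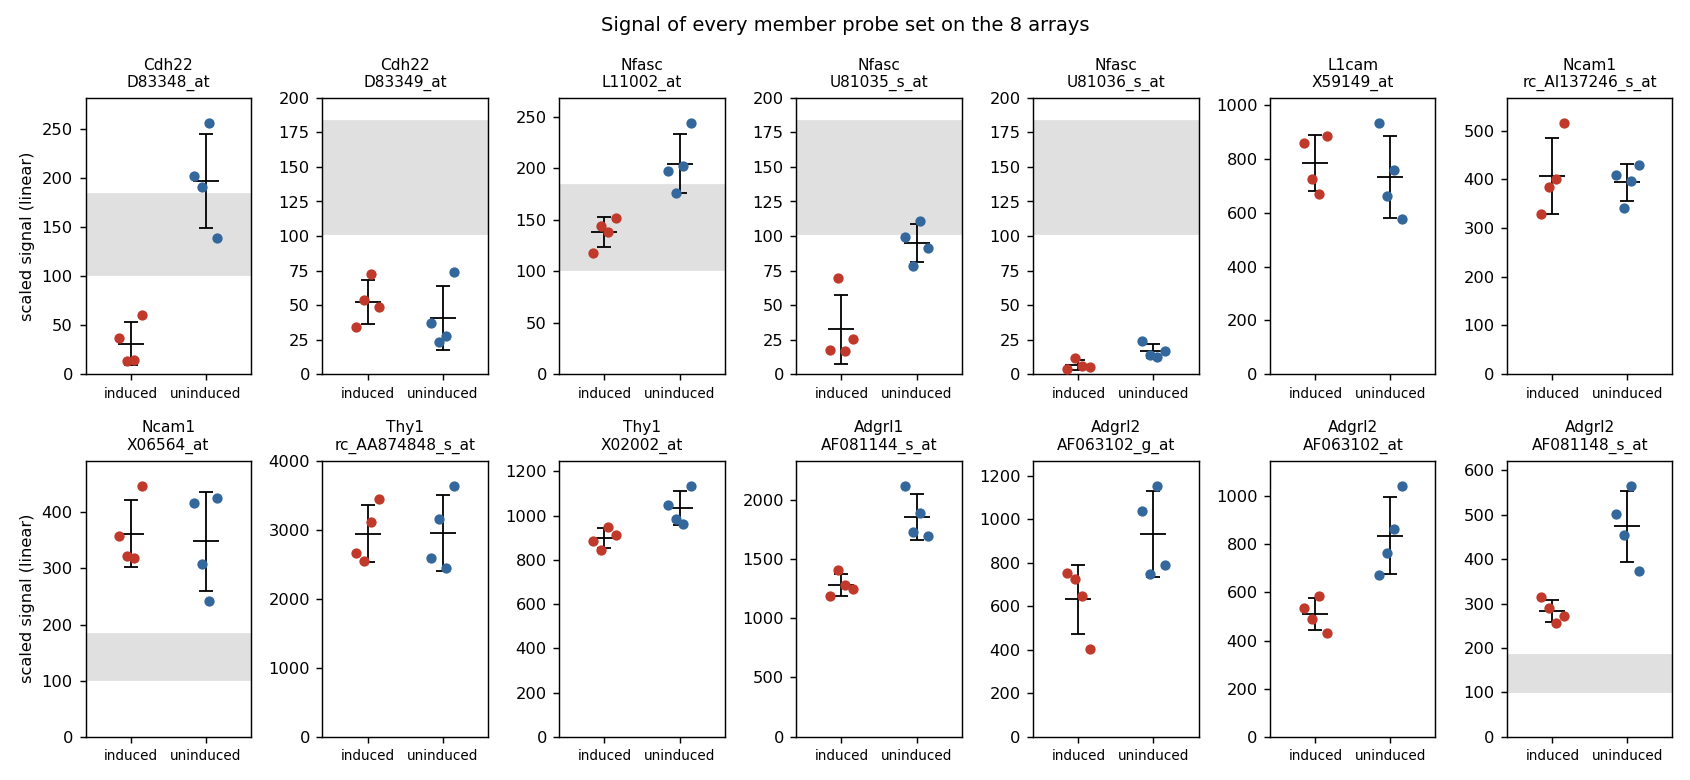
Scaled signal (linear axis from 0) of the 14 member probe sets on the 4 induced and 4 uninduced arrays, 1 point per array, with mean and SD as bars; the grey band, drawn where the mean signal is below 400, is the range over arrays (101.6 to 183.5) of the low-signal controls' 95th percentile. The groups stand apart for Adgrl1 well above that band, while for Cdh22 D83348_at only the uninduced arrays reach it.

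Cdh22, a classical-type cadherin known from pituitary and brain in the rat, was lower in induced cells by 1 probe set, although the size of that difference is not well fixed. Its probe set D83348_at read 37.3, 13.3, 14 and 60 on the induced arrays, against 202.6, 190.9, 256.4 and 139.2 on the uninduced arrays. Every induced array lay under the low-signal controls' 95th percentile on that array, and every uninduced array lay above it. The mean was 31.2 ± 22.2 in induced and 197 ± 48.1 in uninduced cells (SD, n = 4 each). The log2 difference was -2.58 ± 0.41 (SE, limma adjusted p = 0.0020, 95% interval -3.47 to -1.68). Its size depends on the constant added before the logarithm (-1.90 with 32 added, -2.86 with 1 added), because the induced signals are at the level of the controls. The induced mean of 31.2 lay under the filter's signal of 36.0, so the probe set passed the filter only through its uninduced arrays. Its call is therefore a description and no support. That call held in all 16 alternatives in which the probe set was tested, with adjusted p from 0.000663 to 0.0224. Without the filter the limma adjusted p was 0.00503.

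The second Cdh22 probe set, D83349_at, disagreed with the first. It read 33.8, 53.9, 72.3 and 48.6 on the induced arrays, against 37.3, 23.6, 27.9 and 74.2 on the uninduced arrays. The groups overlapped, and all 8 values lay under the low-signal controls' 95th percentile. The log2 difference was 0.38 ± 0.42 (SE, limma adjusted p = 0.736, 95% interval -0.54 to 1.3). The lower Cdh22 signal therefore rests on 1 of the gene's 2 probe sets.

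The sequence just upstream of Cdh22 is shown because, of the 3 members with a listed start, only this gene's start lies near its outer end (48 bases inside). The RefSeq annotation (GRCr8) places the gene on the minus strand, and these 202 bases end next to the outermost annotated base of the gene (chr3:174389941-174390142, 5' to 3' on the minus strand). 
Cdh22 upstream: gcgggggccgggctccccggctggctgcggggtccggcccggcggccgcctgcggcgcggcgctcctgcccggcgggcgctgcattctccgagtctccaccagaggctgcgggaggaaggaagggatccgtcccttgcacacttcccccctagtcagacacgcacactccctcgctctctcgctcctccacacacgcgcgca
G and C make up 74.3% of it. In the 250 bases before the annotated start the share was 75.2%, against a median of 51.2% over 33469 such windows of the genome, 3.33% of which were as rich or richer. On either strand that window held no TGACGTCA (the cAMP response element, in 1.59% of all windows), TGACG (its half-site, which lies within it, 18.2%), TGANTCA (AP-1, 6.34%), GCGNGGGCG (Egr, 4.29%), GGGCGG (GC box, 30.5%), CCAAT (34.0%) or TATAAA (12.9%). No letters are in capitals because no motif matched. The starts listed for Nfasc and Adgrl2 lie 34825 bases or more inside those genes' spans, and their sequence is not printed.

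Nfasc, which links the axon membrane to ankyrin, was lower in induced cells by 1 of its probe sets, and the other 2 lay on the same side. U81035_s_at read 17.5, 69.7, 16.7 and 25.6 on the induced arrays, against 99.5, 78.2, 110.9 and 91.4 on the uninduced arrays. The highest induced array, replicate 2, came within 8.5 signal units of the lowest uninduced one, and all 8 values lay under the low-signal controls' 95th percentile of their array. The log2 difference was -1.55 ± 0.42 (SE, limma adjusted p = 0.0454), and its size depends on the constant added (-1.04 with 32 added, -1.77 with 1 added). The induced mean of 32.4 lay under the filter's signal of 36.0, so the probe set passed the filter only through its uninduced arrays. Its call is therefore a description and no support, and without the filter the limma adjusted p was 0.0674. The call held in 4 of 16 alternatives (adjusted p from 0.0110 to 0.137), and among the 8 fits without 1 array it held only without induced replicate 2 (log2 difference -1.93). It was lost without induced replicate 1 (adjusted p = 0.106), 3 (0.107) or 4 (0.0760) and without uninduced replicate 1 (0.114), 2 (0.0939), 3 (0.137) or 4 (0.0869).

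The brightest Nfasc probe set, L11002_at, read 117.9, 144.4, 138.2 and 151.8 on the induced arrays, against 197.0, 175.7, 201.9 and 244.0 on the uninduced arrays. The groups did not overlap, with 138 ± 14.6 in induced and 205 ± 28.6 in uninduced cells (SD, n = 4 each). The log2 difference of -0.54 ± 0.19 did not pass (limma adjusted p = 0.128), nor did it in any of 17 alternatives (adjusted p from 0.0701 to 0.265). The third, U81036_s_at, was the member under the filter, at 3.5 to 12.0 in induced and 12.2 to 24.3 in uninduced cells. Fitted without the filter it gave -0.80 ± 0.26 (limma adjusted p = 0.151).

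L1cam, the founding member of the family that includes Nfasc and a guide of axon growth, had overlapping groups. It read 860.8, 725.5, 670.2 and 884.8 in induced cells, against 933.6, 661.0, 758.5 and 576.7 in uninduced cells. The log2 difference was 0.11 ± 0.16 (SE, limma adjusted p = 0.799). Its 95% interval of -0.23 to 0.45 corresponds to a change between -14.7% and 37.0% on this scale.

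Ncam1 did not separate the groups in either probe set. The probe set rc_AI137246_s_at read 329.6, 383.5, 400.6 and 515.8 in induced cells, against 408.1, 340.5, 397.4 and 429.8 in uninduced cells. The induced arrays included both the lowest and the highest value. Its log2 difference was 0.03 (95% interval -0.31 to 0.38, limma adjusted p = 0.954), and that of X06564_at was 0.08 (95% interval -0.35 to 0.51, limma adjusted p = 0.913). X06564_at ranged from 319.5 to 447.5 in induced and from 242.9 to 425.3 in uninduced cells.

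Thy1 had the highest percentile of signal on the array among the members' probe sets (rc_AA874848_s_at, percentile 94.4 of all probe sets). This probe set read 2657, 2554, 3118 and 3448 in induced cells, against 2586, 3154, 2449 and 3639 in uninduced cells. The ranges nearly coincided, and the log2 difference was 0.00 (95% interval -0.30 to 0.31, limma adjusted p = 0.998). The other probe set, X02002_at, had the tightest replicates of all members (coefficients of variation of 4.90% in induced and 7.46% in uninduced cells), with 884.0, 845.3, 948.6 and 914.7 in induced cells, against 1046.9, 985.9, 962.9 and 1135.3 in uninduced cells. Its groups did not overlap, but the difference was small, -0.20 ± 0.10 on the log2 scale (12.9% lower), and did not pass (limma adjusted p = 0.328). Thy1 is also known from immature T cells and from fibroblasts. The low-signal controls' 95th percentile, 101.6 to 183.5 over the arrays, is the reference for the markers given next. Of 7 leukocyte and T-cell markers Cd4 had the highest mean, at 124.0 to 290.0 in induced and 135.7 to 215.7 in uninduced cells. Ptprc read 17.5 to 157.3 in induced and 24.6 to 131.8 in uninduced cells. The T-cell genes Cd3d and Cd8a had lower signals than Cd4 in both groups. Cd3d read 5.1 to 21.3 in induced and 3.7 to 7.0 in uninduced cells. Cd8a read 10.1 to 19.9 in induced and 22.5 to 48.1 in uninduced cells. Cd3g read 12.6 to 58.8 in induced and 9.1 to 109.4 in uninduced cells. Cd74 read 9.7 to 26.5 in induced and 5.3 to 10.3 in uninduced cells, and Lyz2 2.9 to 7.6 and 7.4 to 10.3. Of 7 fibroblast markers the collagen Col3a1 had the highest mean, at 1070.6 to 1369 in induced and 954.7 to 1123.8 in uninduced cells. Col1a1 averaged 326 in induced and 291 in uninduced cells. The rest averaged less than 101.6, the lowest of the controls' 95th percentiles. Means in induced and uninduced cells were 71.55 and 27.45 for Fn1 and 55.5 and 90.9 for Dcn. They were 47.1 and 47.45 for Col1a2, 30.7 and 34.4 for Lum and 1.3 and 1.3 for Postn. The marker lists were chosen with earlier results of these data known, and the part of such cells in the Thy1 signal was not tested.

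Adgrl1, the latrophilin that binds alpha-latrotoxin with high affinity, fell in induced cells. It read 1190.9, 1406.3, 1277.5 and 1244.2 on the induced arrays, against 2116.4, 1723.8, 1883.5 and 1695.6 on the uninduced arrays. The highest induced array lay 289.3 signal units below the lowest uninduced array. The mean was 1280 ± 91.6 in induced and 1855 ± 193 in uninduced cells (SD, n = 4 each), 69.0% of the uninduced level. The log2 difference was -0.53 ± 0.10 (SE, limma adjusted p = 0.00746, 95% interval -0.75 to -0.31). The call held in 16 of 17 alternatives, all 8 fits without 1 array among them (adjusted p from 0.00637 to 0.128), and was lost with each array centred on its median.

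Adgrl2, a latrophilin that does not bind the toxin with high affinity, was lower in induced cells in all 3 probe sets, and 2 of them passed. AF081148_s_at read 313.6, 289.9, 255.8 and 270.9 in induced cells, against 501.9, 453.8, 565.1 and 374.2 in uninduced cells. AF063102_at read 534.9, 491.7, 585.9 and 431.3 in induced cells, against 674.2, 764.6, 864.2 and 1043.8 in uninduced cells. Neither showed any overlap between the groups. Their log2 differences were -0.72 ± 0.15 (limma adjusted p = 0.0137) and -0.69 ± 0.15 (limma adjusted p = 0.0147).

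The third, AF063102_g_at, is named for the same sequence record as AF063102_at, so these are not independent readings of the gene. It read 751.7, 725.9, 647.5 and 402.9 in induced cells, against 1037.0, 748.9, 1153.6 and 787.4 in uninduced cells. One uninduced array lay below the highest induced array, and the log2 difference of -0.57 ± 0.20 did not pass (limma adjusted p = 0.142). Within the groups the Adgrl2 probe sets did not all vary together. With the group means taken out, AF063102_g_at correlated at 0.19 with AF063102_at and at 0.62 with AF081148_s_at over the 8 arrays. AF063102_at and AF081148_s_at correlated with each other at -0.44. The call of AF081148_s_at held in 14 and that of AF063102_at in 13 of 17 alternatives (adjusted p from 0.00706 to 0.117 and from 0.0109 to 0.0975). Without uninduced replicate 3 both were lost (adjusted p = 0.0533 and 0.0510), as they were with median centring (0.117 and 0.0975) and without both arrays numbered 2 (0.0909 and 0.0891), and AF063102_at was also lost with no intensity trend (0.0569). The remaining latrophilin, Adgrl3, the only gene on the array from a list of 22 other adhesion receptors of this class and latrophilin ligands, had signals of 6.2 to 16.3 in induced and 8.5 to 51.6 in uninduced cells and was not tested.

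**Figure D2:**
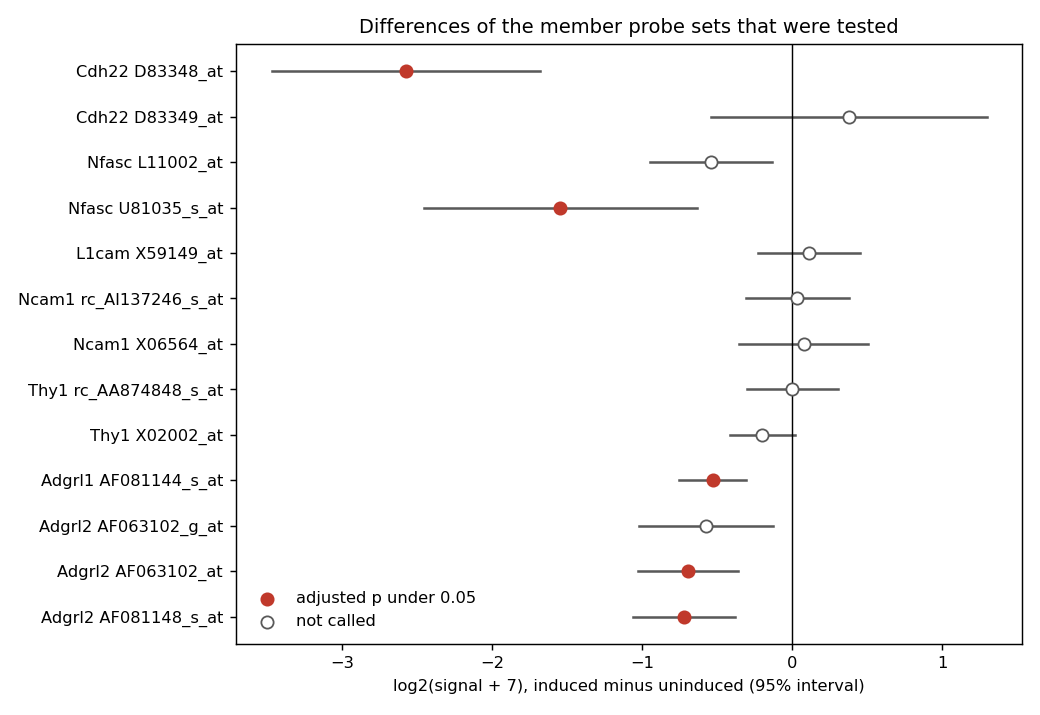
Difference in log2(signal + 7), induced minus uninduced, for the 13 member probe sets tested, with 95% intervals from the limma fit; filled points passed an adjusted p of 0.05. The intervals of both L1cam and Ncam1 span 0, and those of all Adgrl1, Adgrl2 and Nfasc probe sets lie below it, although 2 of these 6 did not pass after adjustment.

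Cdh22 D83348_at and Nfasc U81035_s_at are given no place in an order of sizes, because their induced signals lay under the low-signal controls' 95th percentile and their fitted differences move with the constant added. The latrophilin probe sets lay together between -0.72 and -0.53, with Nfasc L11002_at (-0.54) among them. Their intervals overlapped one another, and differences between members were not tested. With quantile normalization 4 of the 5 calls held and that of Nfasc U81035_s_at was lost (adjusted p = 0.0612). With median centring only the call of Cdh22 D83348_at held (adjusted p = 0.00323), while those of Nfasc U81035_s_at (0.0812), Adgrl1 (0.128) and both Adgrl2 probe sets (0.0975 and 0.117) were lost.

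**Figure D3:**
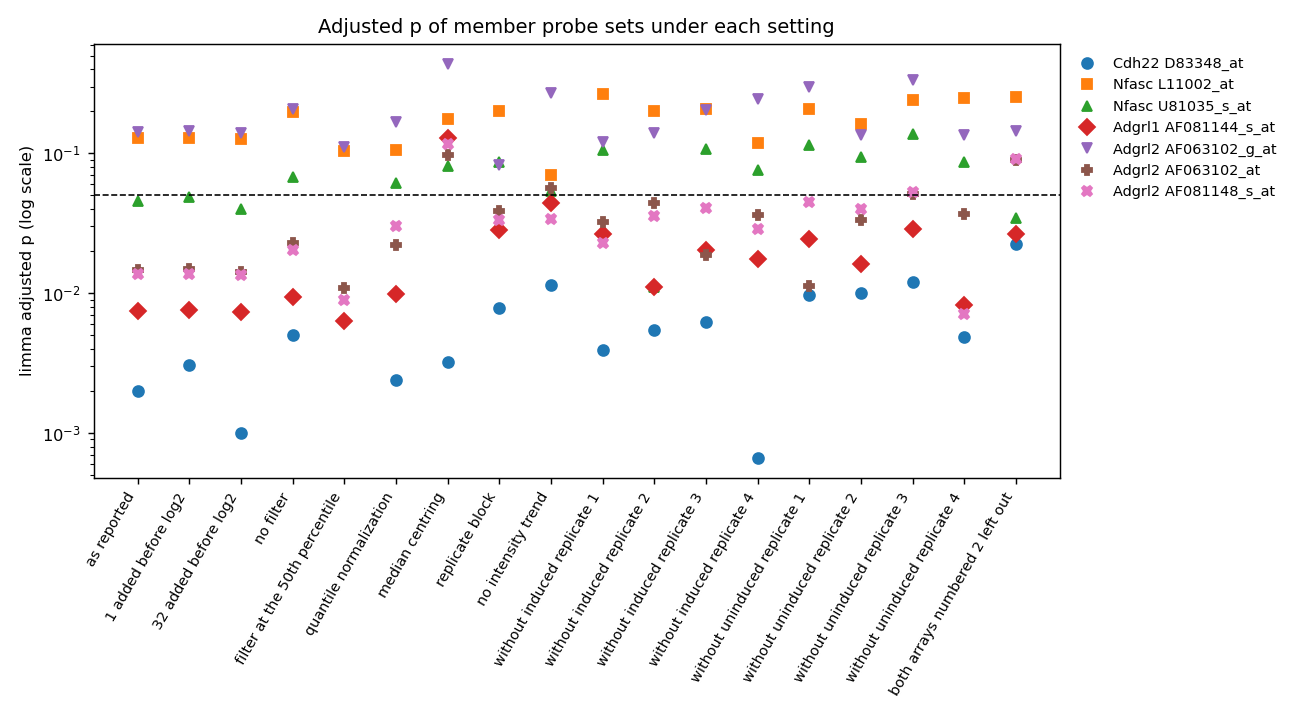
Limma adjusted p (log axis) of 7 member probe sets as reported and under 17 other settings, with a dashed line at 0.05; a missing point means that the probe set lay under that setting's filter. Cdh22 D83348_at stays under the line wherever it was tested, Adgrl1 crosses it with median centring, and Nfasc U81035_s_at lies above it in most settings.

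The other genes of these families and the proteins they work with are given for context. Of 10 other cadherins and protocadherins on the array 4 passed the filter and 0 were called by limma, with 1 at an unadjusted p under 0.05. That gene was Celsr3, a cadherin with a G-protein-coupled receptor tail (log2 difference 0.39 ± 0.11, adjusted p = 0.0689), and the next lowest p was that of the kidney cadherin Cdh16 (-0.71 ± 0.58, adjusted p = 0.598). The neural cadherins Cdh2, Cdh4, Cdh6 and Cdh8 averaged 9.5 to 14.9 in induced and 10.5 to 25.9 in uninduced cells, under the filter. Over the 4 tested genes the median log2 difference was -0.05.

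Of 25 tested genes for other immunoglobulin-family and synaptic adhesion molecules 1 fell, 0 rose and 24 were not called, at a median of -0.06. The gene that fell was Cntnap1, which joins contactin at the paranode, across from glial neurofascin. It averaged 672 ± 148 in induced and 1047 ± 48.5 in uninduced cells (mean ± SD of 4 arrays each), which the fit puts at -0.66 ± 0.14 on the log2 scale (limma adjusted p = 0.0131), and was called in all 8 fits without 1 array. It was lost with median centring, with no intensity trend and without both arrays numbered 2 (adjusted p from 0.00127 to 0.0983 over 17 alternatives). Nrcam, a relative of Nfasc and L1cam, differed by -0.05 ± 0.18 (limma adjusted p = 0.944). Another relative, Chl1, read 4.1 to 87.0 in induced and 3.2 to 28.8 in uninduced cells and lay under the filter. Both genes were chosen after their values were seen.

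Of 33 tested intracellular partners, signalling partners and modifying enzymes 4 rose, 1 fell and 28 were not called, at a median of 0.06. Ezr and Msn, which tie membrane proteins such as L1 to actin, rose together. Ezr averaged 1450 ± 162 in induced and 809 ± 109 in uninduced cells (mean ± SD of 4 arrays each), which the fit puts at 0.84 ± 0.13 on the log2 scale (limma adjusted p = 0.0014). Msn averaged 669 ± 71.3 in induced and 360 ± 49.9 in uninduced cells (mean ± SD of 4 arrays each), which the fit puts at 0.89 ± 0.14 on the log2 scale (limma adjusted p = 0.00195). Both were called in all 17 alternatives. A second Msn probe set, with means of 17.5 in induced and 3.4 in uninduced cells, lay under the filter.

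Gap43, a growth-cone protein that acts downstream of NCAM, rose by 0.61 ± 0.13 on the log2 scale (limma adjusted p = 0.0118). Its call was lost in the same 3 settings as that of Cntnap1 (adjusted p from 0.00817 to 0.117 over 17 alternatives). Prnp, the prion protein, an NCAM partner, rose by 0.36 ± 0.09 (limma adjusted p = 0.0301), a call held in 3 of the 8 fits without 1 array and lost without induced replicate 1, 2 or 3 (adjusted p = 0.0936, 0.0696 and 0.0601) or uninduced replicate 1 or 3 (0.0865 and 0.0688; from 0.0264 to 0.277 over 17 alternatives). Fgfr1, a receptor through which NCAM and L1 signal, fell by 0.61 ± 0.15 (limma adjusted p = 0.0316). A second Fgfr1 probe set fell by 0.96 ± 0.22 (limma adjusted p = 0.0172) and the third lay under the filter. The call of the first was lost without induced replicate 1, 3 or 4 (adjusted p = 0.0839, 0.0720 and 0.0663) and without uninduced replicate 1, 3 or 4 (0.0987, 0.109 and 0.0542; from 0.0138 to 0.157 over 17 alternatives).

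**Figure D4:**
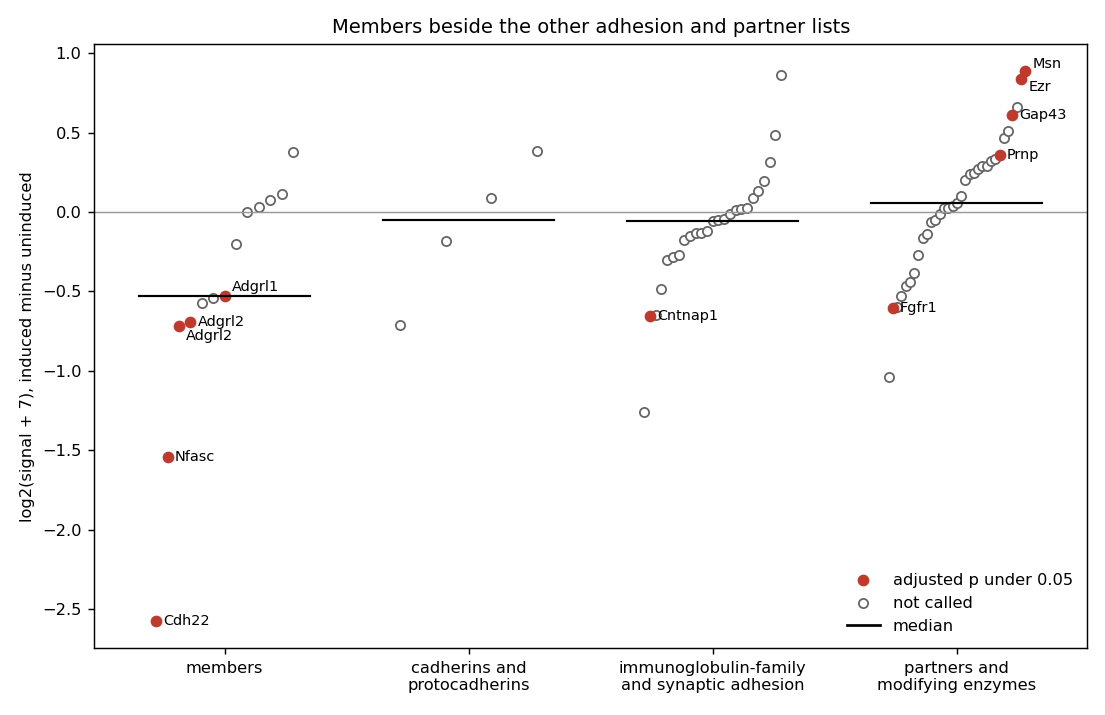
Difference in log2(signal + 7), induced minus uninduced, for the 13 member probe sets and for the tested genes of 3 lists (4, 25 and 33 genes, 1 probe set each), with filled named points for those at an adjusted p under 0.05 and a line at each median. The medians are -0.53 for the members and -0.05, -0.06 and 0.06 for the lists; the members were chosen with these values known.

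Markers of the line and of other cells were read beside these results. Of the 7 tested chromaffin and PC12 markers 2 fell, 0 rose and 5 were not called, where 2.97% of all probe sets tested were called lower. Those not called went both ways. Scg2 (log2 difference 0.35, limma adjusted p = 0.311), Chgb (0.16, 0.496) and Slc6a2 (0.04, 0.969) lay above 0. Slc18a1 (-0.16, 0.798) and Th (-0.20, 0.910) lay below it. The 2 that fell are transcription factors of the sympathoadrenal lineage. Phox2a averaged 3552 ± 331 in induced and 5765 ± 332 in uninduced cells (SD, n = 4 each; log2 difference -0.70 ± 0.09, limma adjusted p = 0.000484). Gata3 averaged 247 ± 27.3 in induced and 400 ± 46.1 in uninduced cells (SD, n = 4 each; -0.68 ± 0.15, limma adjusted p = 0.0152). The Gata3 call was lost without uninduced replicate 1 (adjusted p = 0.0558) or 3 (0.0554; from 0.0097 to 0.0688 over 17 alternatives). The summed signal of the 9 markers on the array ranged from 16476 to 17663 in induced and from 16729 to 20915 in uninduced cells. Most of this sum was Chgb, which averaged 12195 in induced and 10991 in uninduced cells. Phox2a was the next largest part and differed in the other direction, so the sum does not describe the 9 markers as a set.

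For cells other than the line, 7 fibroblast markers summed to 1526 to 1910 in induced and 1356 to 1757 in uninduced cells, with 0 of 5 tested called by limma and 1 at an unadjusted p under 0.05, Fn1 (log2 difference 1.12 ± 0.43, adjusted p = 0.186). Next came Col3a1 (0.18, adjusted p = 0.441). The uninduced mean of Fn1, 27.45, lay under the filter's signal of 36.0, so Fn1 passed the filter only through its induced arrays. Its difference is therefore a description and no support. The 7 leukocyte markers summed to 207 to 547 in induced and 222 to 430 in uninduced cells, with 0 of 3 called by limma and 0 at an unadjusted p under 0.05; those with the lowest p were Ptprc (0.24, adjusted p = 0.926) and Cd3g (0.14, adjusted p = 0.959). The 5 Schwann cell and glia markers summed to 801 to 925 in induced and 634 to 898 in uninduced cells. Of 4 tested, 1 rose, Pmp22, a myelin protein also known as a growth arrest gene (log2 difference 0.81 ± 0.18, limma adjusted p = 0.0161). Its other probe set did not pass (-0.37), and the call was lost without induced replicate 1 or 2 (adjusted p = 0.0562 and 0.0510) or uninduced replicate 2 or 3 (0.0518 and 0.0554; from 0.00932 to 0.130 over 17 alternatives). The glial factor Sox10 read 1.3 to 13.2 in induced and 4.5 to 16.9 in uninduced cells. The part of any of these in the members' differences was not tested.

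The genes most like each member were found by Pearson's correlation over the 8 arrays among 3616 other genes, given as a description, since the arrays share the group difference and so many genes were searched. Adgrl1 was closest to Gata3 (r = 0.98) and Nfib (r = 0.97), both called lower in induced cells. Cdh22 was closest to Dhcr7 (r = 0.97) and Tmem218 (0.94), and Nfasc (L11002_at) to Sh3gl1 (0.96) and Amn (0.95). Adgrl2 (AF063102_g_at) was closest to Cebpg and Ppp1cc (0.96 each), L1cam to Tpst2 (0.97) and Cbr1 (0.88), Ncam1 (rc_AI137246_s_at) to Muc2 (0.97) and Tnc (0.96), and Thy1 (rc_AA874848_s_at) to Sag (0.93) and Fam241b (0.92).

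With the group means taken out, the closest genes were mostly different ones. Adgrl1 was then closest to Bag6 (0.92) and Ercc1 (0.91), so neither Gata3 nor Nfib stayed among its closest genes. Cdh22 was closest to Bcl2l2 (0.95) and Gstm7 (0.94), Nfasc to Exoc4 (0.97) and Ceacam1 (0.96), and Thy1 to Wdfy3 (0.99) and Acsl4 (0.96). L1cam remained closest to Tpst2 (0.97), followed by Nr4a2 (0.91), Ncam1 to Muc2 (0.99), followed by Csf2rb (0.98), and Adgrl2 to Cebpg (0.97), followed by Eci1 (0.93).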

How the data were processed

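RNA of 8 samples was measured on 8 Affymetrix rat arrays, grouped by sample title into 4 induced and 4 uninduced. The deposited values are intensities, 1 linear signal per probe set and array, which the authors had scaled to a common level (trimmed means of 500.78 to 500.85, 2% trimmed from each end); the program is not given in the sources used here. There are no detection calls, and the number of arrays limits the precision. Symbols came from the array's annotation table (1 symbol for 7018 probe sets, several for 308, none for 1473; 6994 matched the rat reference list, GRCr8). Before taking log2, 7 was added to each signal (the 10th percentile of all values, rounded). Left out were 59 control probe sets and 2611 others with a mean under the 30th percentile (36.0), leaving 6129. The fit used limma 3.58.1 in R 4.3.3 (lmFit, eBayes with an intensity trend, 6 residual and 5.77 prior degrees of freedom), two-sided, with Benjamini-Hochberg adjustment over the 6129, and was tested on simulated data. Errors of log2 differences are standard errors and those of signals are SDs.

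The alternatives changed the constant, filter, scaling, trend or replicate block, or left out arrays. Named are all member probe sets, up to 6 called genes per context list by lowest p (or the 2 with the lowest p), and the 2 genes most like each member; a gene on a list is its brightest tested probe set. Members and lists were chosen with earlier results of these data known. Promoter sequence is from RefSeq (GRCr8), where 3 of the 7 genes had an entry.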

Additional observations from a re-analysis of the deposited data

Results flagged for a closer look

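Of the 28 groups of 4 arrays checked (14 member probe sets, each in both conditions), 1 held an array far from the other 3; about 1 in 20 groups does so by chance. It was induced replicate 2 of Nfasc U81035_s_at, at a signal of 69.7, where the nearest of the other induced arrays read 25.6 (gap over range 0.832, just past Dixon's 95% critical value for 4 samples). Without that array the log2 difference, induced minus uninduced, was -1.93 (limma adjusted p = 0.0110), against -1.55 (adjusted p = 0.0454) with it; over the alternatives the adjusted p ranged from 0.0110 to 0.137.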

How the results depend on the processing

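With each array centred on its median, 230 of 6129 probe sets passed in place of 433 (72.6% of them higher, against 58.0%), 1 member probe set in place of 5, and 2 genes of the adhesion and partner lists in place of 6. With no intensity trend these counts were 279, 3 and 2, and without both arrays numbered 2 they were 221, 3 and 3. With the filter at the 50th percentile 3 members passed, because Cdh22 D83348_at and Nfasc U81035_s_at were no longer tested. Leaving out 1 array gave 313 to 408 probe sets, 2 to 5 members (2 without uninduced replicate 3) and 4 to 7 list genes. The cause of these shifts was not tested.

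Of the differences that never passed, some changed sign around 0. Thy1 rc_AA874848_s_at gave -0.0544 with quantile normalization and -0.0829 to 0.11 without 1 array. Ncam1 rc_AI137246_s_at gave -0.0106 without both arrays numbered 2 and -0.0838 to 0.13 without 1 array, and Ncam1 X06564_at -0.081 to 0.18 without 1 array. Whether the titles' numbers pair the samples cannot be decided from so few arrays. Deviations of same-numbered arrays from their group means correlated at -0.14, 0.06, -0.09 and 0.19. The arrays numbered 4 were each other's closest match across the groups, which held for no other number. With a replicate block 367 probe sets, 4 members and 4 list genes passed, and the calls of Nfasc U81035_s_at (adjusted p = 0.0869), Gata3 (0.0581), Prnp (0.0911) and Fgfr1 (0.0801) were lost. Signals at the level of the low-signal controls limit the sizes given for Cdh22 D83348_at and Nfasc U81035_s_at.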
